A study of Mus musculus with 18 samples.

Results

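The potassium channel genes were the 94 protein-coding mouse genes whose RefSeq symbol begins with Kcn, out of 27179 genes counted in each library. They were picked by Entrez identifier and symbol alone, and 4 noncoding genes with a Kcn symbol were left out. The 94 genes fall into 21 symbol families, from the voltage-gated Kcna to Kcnd genes and the inward rectifier Kcnj genes to accessory families such as Kcnip and Kcne. The test covered 89 of them, those with at least 1 count in an iHox library. The other 5 were Kcna10, Kcnj1 and Kcnmb3 with 0 counts over all 18 libraries, Kcnk15 with 1 count and Kcnj16 with 4 counts.

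RNA was sequenced from mouse embryonic stem cells that were differentiated as embryoid bodies with 1 µM retinoic acid (RA) and 0.5 µM smoothened agonist (SAG, an activator of Hedgehog signalling), a procedure that yields spinal motor neurons and interneurons. Day 2 progenitors came from the Ainv15(iCre) line after 2 days of RA and SAG, without doxycycline (Dox). Control neurons came from the Ainv15(iFlag.Hoxc6) line at day 4, also without Dox. The iHoxc6, iHoxc8, iHoxc9 and iHoxc10 neurons came from lines that carry a Flag-tagged Hox transgene at the HPRT locus, and were collected at day 4 after 48 h of 3 µg/ml Dox. Every group had 3 libraries from separate differentiations, each with 24498630 to 33168533 counts. Control and iHoxc6 neurons share a line and differ in Dox and the induced gene, which cannot be told apart. The iHoxc8, iHoxc9 and iHoxc10 neurons differ from control in line, Dox and transgene, which cannot be told apart either, and no Dox-treated line without a Hox transgene was among the groups.

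The induced Hox gene stood at 499.9 to 532 CPM (counts scaled to a common library total) of Hoxc6 in iHoxc6 neurons, 361 to 409.9 CPM of Hoxc8 in iHoxc8, 213 to 236 CPM of Hoxc9 in iHoxc9 and 425 to 433 CPM of Hoxc10 in iHoxc10, against at most 5.17 CPM of any of these genes in a control library. Hoxc6 also stood at 43.1 to 49.4 CPM in the iHoxc10 libraries, above the 1.80 to 5.17 CPM of the control libraries, and its part in the iHoxc10 results was not tested. Libraries were sequenced in 4 runs. Control and iHoxc6 libraries shared a run, as did iHoxc9 and iHoxc10 libraries, while the day 2 and the iHoxc8 libraries each had their own. In the other comparisons the run and the group cannot be told apart. Levels below are CPM after TMM normalization, with the SD over n = 3 libraries, and 3 counts in a library correspond to 0.0904 to 0.122 CPM.

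Potassium channels let potassium ions flow out of a cell and so set the resting potential, end action potentials and shape firing. Their pores are built from voltage-gated, calcium-activated or sodium-activated, inward rectifier or tandem-pore leak (Kcnk) subunits. Silent subunits (Kcnf, Kcng, Kcns, Kcnv) form no channel alone but modify Kcnb channels, and auxiliary subunits (Kcnab, Kcne, Kcnip, Kcnmb) tune gating and transport. Motor neurons use several of these classes to control excitability as they mature.

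A few genes carried most of the potassium channel RNA. Levels of different genes were compared as CPM per kilobase of exon. Over the 15 day 4 libraries Kcnh2, a voltage-gated channel of the ERG type, stood at 31.8 CPM per kilobase, which was 30.6% of the sum over all members. Kcnn1, a small-conductance calcium-activated channel that underlies the afterhyperpolarization, followed at 18.7 CPM per kilobase, 18% of the sum. Kcnmb4 (the neuronal auxiliary subunit of BK channels), Kcne1l (an X-linked MinK-related auxiliary subunit) and Kcnab2 (a beta subunit of Kcna channels) were also abundant, at 4.89, 4.76 and 4.38 CPM per kilobase. In CPM, 34 of the 94 members averaged above 1 CPM over the day 4 libraries, and 25 were under 0.1 CPM.

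The summed level of all 94 members was 37.0 ± 4.85 CPM per kilobase in day 2 progenitors and 100.9 ± 2.79 in control neurons. The iHoxc6 neurons had 108.4 ± 5.63, the iHoxc8 neurons 102.5 ± 4.77, the iHoxc9 neurons 95.3 ± 1.83 and the iHoxc10 neurons 112.5 ± 1.25. Every day 2 library lay below every day 4 library. The iHoxc9 libraries (94.0 to 97.4) lay below all control and all iHoxc10 libraries (111 to 114 in iHoxc10). The lower total in iHoxc9 than in control rested on Kcnh2. Without Kcnh2 the sum was 70.4 ± 2.13 in iHoxc9 and 64.6 ± 4.09 in control, with every iHoxc9 library above every control library. It was 77.3 ± 4.32 in iHoxc10 without Kcnh2, where the libraries overlapped with those of iHoxc9. Between families, the Kcnh sum was lowest among day 4 groups in iHoxc9 (27.9 ± 0.59 CPM per kilobase, against 38.6 ± 2.19 in control). The Kcne sum was 9.91 ± 0.74 in iHoxc6 against 3.54 ± 0.235 in control, and the Kcnip sum was 4.19 ± 0.14 in iHoxc9 against 1.52 ± 0.25 in control. The Kcnh and Kcne sums at day 4 are dominated by Kcnh2 and Kcne1l, which are described below. The Kcnip sum is spread over more genes, with Kcnip2 at 1.06 and Kcnip3 at 0.60 CPM per kilobase over the day 4 libraries.

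**Figure D1:**
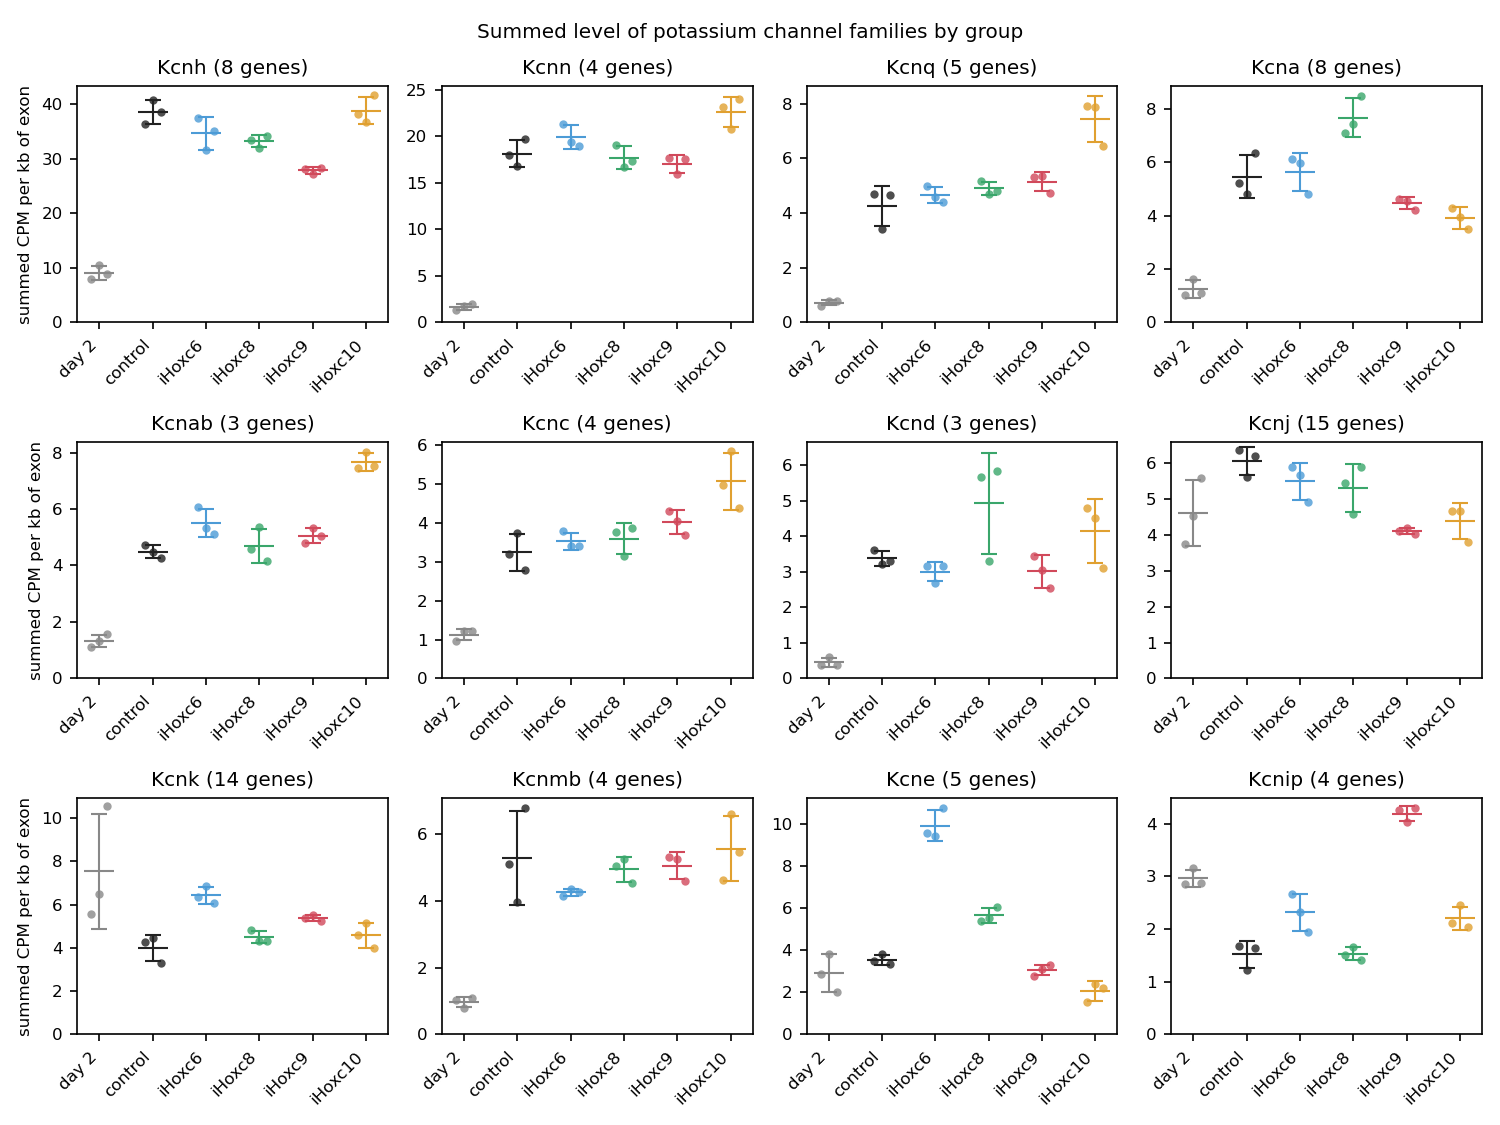
Summed CPM per kilobase of exon for 12 potassium channel families in each group. Points are libraries and bars are the mean ± SD of 3 libraries. Kcnh and Kcnn sums were higher in every day 4 library than in any day 2 library, and the Kcne sum was highest in iHoxc6 neurons.

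Control neurons were compared with day 2 progenitors to ask how these genes change as progenitors become neurons. Potassium channel genes rose more often than they fell: 34 were higher in control neurons and 12 lower, 46 of 89 tested (51.7%, against 42.4% of all 20944 genes tested), by edgeR's quasi-likelihood test at a Benjamini-Hochberg adjusted p under 0.01. Higher calls were 38.2% of the members against 21.2% of all genes, and lower calls 13.5% against 21.2%. The median log2 fold change was 0.88 over the 81 members above the 3-count floor in either group, with genes at 0 set to their bound. Without floor or bounds it was 0.86 over the 89 tested members, beside 0.00 over all genes tested. With a log2 fold change beyond 2, 25 rose (6.74% of all genes did) and 8 fell (5.82%). The day 2 and control libraries differ in cell line, day and run, which cannot be told apart, and in bulk RNA more cells of a type and more RNA per cell cannot be told apart either.

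Neuronal markers moved with these counts. The 8 neuron markers, such as Tubb3 and Snap25, summed to 277 to 556 CPM in day 2 libraries and 4915 to 5391 CPM in control libraries, and all 8 rose. All 8 motor neuron markers rose as well (20.7 to 47.5 CPM summed at day 2, 682 to 713 CPM in control), while all 6 cycling markers fell, from 2201 to 2767 CPM at day 2 to 671 to 1141 CPM. The part of cell composition in the channel changes was not tested.

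The abundant pore genes Kcnh2 and Kcnn1 both rose. Kcnh2 was at 35.7, 47.5 and 39.3 CPM in the day 2 libraries and 163, 187 and 176 CPM in the control libraries, a log2 fold change of 2.10 ± 0.13 (SE; edgeR adjusted p = 6.53e-12). Kcnn1 stood at 5.46, 7.06 and 8.12 CPM at day 2 and at 81.0, 75.1 and 89.2 CPM in control neurons (log2 fold change 3.57 ± 0.15, edgeR adjusted p = 1.8e-14). For both genes every control library was above every day 2 library.

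Kcnd3, a pore subunit of the fast A-type current, rose by 3.59 ± 0.32 on the log2 scale, from 2.17 ± 1.32 to 26.1 ± 2.59 CPM. Kcna6, a Shaker-type channel, rose from 1.60 ± 0.44 to 12.1 ± 0.08 CPM, and Kcna5 of the same family from 1.43 ± 0.84 to 9.17 ± 2.44 CPM. All 3 passed the test. Kcnu1, the sperm channel, was at 0.615 ± 0.105 CPM in control neurons, with a log2 fold change of 2.45 ± 0.43 (edgeR adjusted p = 5.01e-05).

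The leak and inward rectifier families moved in both directions. Kcnk3, an acid-sensitive leak channel, was at 0.067, 0.100 and 0.156 CPM at day 2 and 3.63, 2.89 and 2.77 CPM in control neurons (log2 fold change 4.78 ± 0.31, edgeR adjusted p = 1.49e-11). Kcnk10, a mechanically gated leak channel, rose from 0.483 ± 0.121 to 7.51 ± 2.00 CPM (3.96 ± 0.28 on the log2 scale). In the opposite direction, Kcnk1 was at 4.28, 5.66 and 10.2 CPM at day 2 and 0.578, 0.578 and 0.898 CPM in control neurons, and so fell by 3.29 ± 0.31 on the log2 scale (edgeR adjusted p = 6.15e-09). Kcnk6 fell by 3.78 ± 0.58, from 1.04 ± 0.48 to 0.072 ± 0.007 CPM, and Kcnk5, an alkaline-activated leak channel, fell by 1.28 ± 0.22, from 13.2 ± 3.77 to 5.47 ± 1.88 CPM. The control and day 2 libraries of these 5 genes did not overlap.

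Kcnj11, the pore of ATP-sensitive channels, had 0.573, 0.599 and 0.687 CPM at day 2 and 9.06, 6.89 and 8.61 CPM in control neurons (log2 fold change 3.71 ± 0.21, edgeR adjusted p = 1.68e-12). Kcnj4, a classical inward rectifier, fell by 2.25 ± 0.31, from 6.25 ± 1.45 to 1.32 ± 0.56 CPM. Kcnj5, a G-protein-gated channel, was at 0 counts in all day 2 libraries and 0.436 ± 0.263 CPM in control neurons, which is at least 4.44-fold higher.

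Auxiliary and silent subunits also moved in both directions. Kcne3 was at 2.22, 2.56 and 1.09 CPM at day 2 and 0.032, 0.231 and 0 CPM in control neurons (log2 fold change -4.47 ± 0.61, edgeR adjusted p = 1.85e-06). Kcnip3, a calcium-binding partner of Kcnd channels, was at 9.80, 10.6 and 9.43 CPM against 1.06, 2.04 and 2.28 CPM (log2 fold change -2.48 ± 0.25, edgeR adjusted p = 1.89e-08). Its relative Kcnip2 changed the other way, from 0.228 ± 0.057 to 1.05 ± 0.04 CPM. The silent subunit Kcng1 fell by 2.61 ± 0.31 on the log2 scale, from 3.48 ± 1.07 to 0.573 ± 0.192 CPM, whereas Kcnmb4 rose from 3.11 ± 0.55 to 17.3 ± 4.74 CPM.

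**Figure D2:**
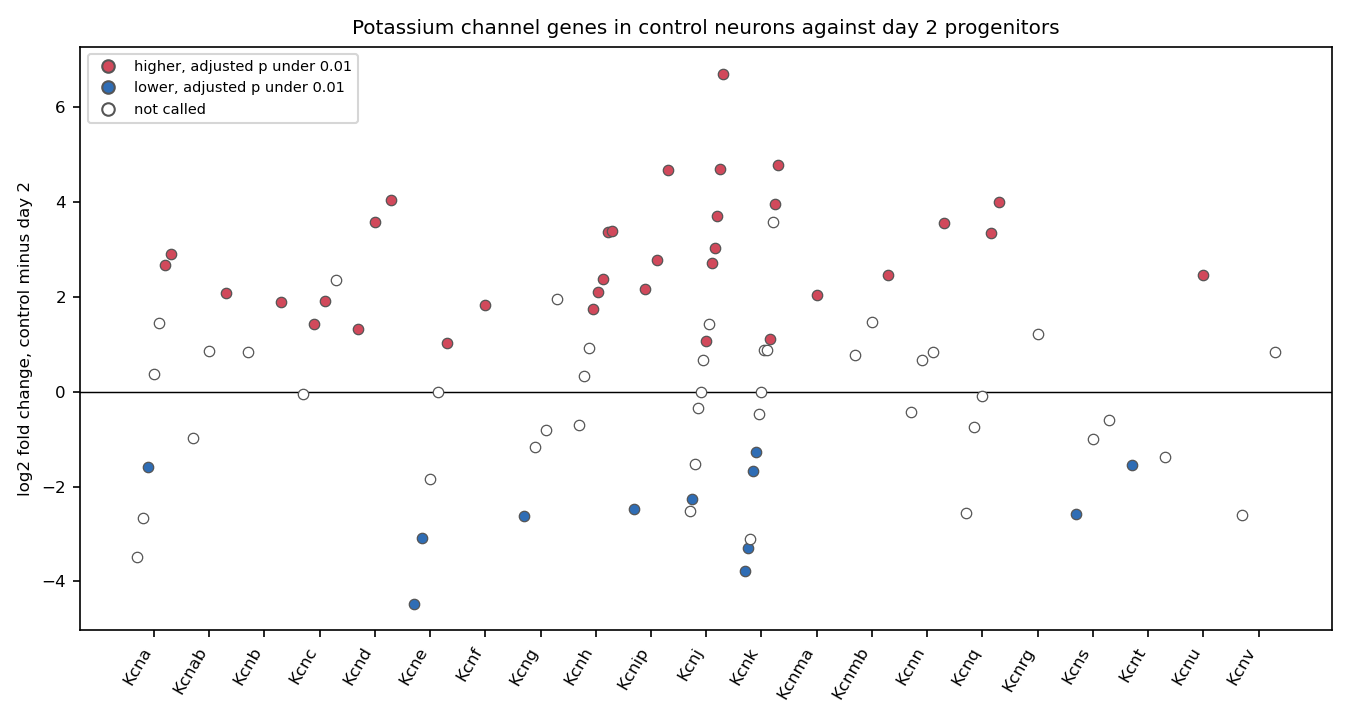
Log2 fold change of the 89 tested potassium channel genes in control neurons against day 2 progenitors, by symbol family. Red and blue points passed an adjusted p under 0.01. The 34 higher genes spread over most families, and Kcna, Kcne, Kcnip, Kcnj and Kcnk each held genes called in both directions. Values of genes at 0 counts in a group are fitted and are no bound.

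Each iHox line was then compared with control neurons, and iHoxc9 with iHoxc10, to ask which channel genes differ with the induced Hox gene. The iHox comparisons share the 3 control libraries, so they are not independent of each other. In iHoxc6 neurons 4 members were higher and 1 lower (5.62% of 89, against 0.587% of all genes), and in iHoxc8 neurons 2 were higher and 0 lower (2.25%, against 2.12%). In iHoxc9 neurons 16 were higher and 8 lower (27.0%, against 14.1%), which is 18% higher against 6.95% of all genes and 8.99% lower against 7.13%. In iHoxc10 neurons 10 were higher and 2 lower (13.5%, against 14.4%), which is 11.2% higher against 6.67% and 2.25% lower against 7.75%. Between iHoxc9 and iHoxc10, 8 members were higher in iHoxc9 and 8 lower (18%, against 4.99%), where 2.6% of all genes were higher and 2.4% lower. For iHoxc6, 0.363% of all genes were higher and 0.224% lower, and for iHoxc8 1.03% and 1.09%. The shares called in either direction in iHoxc8 and iHoxc10 were near those of all genes, and those in the other 3 comparisons were above them.

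With a log2 fold change beyond 2 the counts were 0 in iHoxc6 (against 0.115% of all genes), 2 in iHoxc8 (2.25%, against 0.22%), 13 in iHoxc9 (14.6%, against 2.7%), 4 in iHoxc10 (4.49%, against 1.48%) and 6 between iHoxc9 and iHoxc10 (6.74%, against 1.31%). For iHoxc6, 5 members passed edgeR without this limit, 12 had an unadjusted p under 0.05, and DESeq2 called 6 at the adjusted threshold alone. By direction, the all-gene shares beyond 2 were 0.043% higher and 0.0716% lower in iHoxc6, 0.138% and 0.0812% in iHoxc8, 1.53% and 1.17% in iHoxc9, 0.773% and 0.711% in iHoxc10, and 0.711% and 0.597% between iHoxc9 and iHoxc10. The members beyond 2 were 10 higher and 3 lower in iHoxc9, 3 and 1 in iHoxc10, and 4 and 2 between iHoxc9 and iHoxc10.

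The median member log2 fold change, over the 81 to 84 members above the floor, was 0.09 for iHoxc6, 0.19 for iHoxc8, 0.24 for iHoxc9, 0.41 for iHoxc10 and 0.01 between iHoxc9 and iHoxc10. Without floor or bounds, over the 89 tested members, the medians were 0.04, 0.18, 0.23, 0.36 and 0.00 in the same order. Those over all genes tested, also without a floor, were 0.00 to 0.03. Altogether 32 members were called in at least 1 of the 5 comparisons (36.0% of 89, against 21.6% of all genes tested).

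Single libraries moved the smaller counts by over 1.5 times. For iHoxc6 the count was 2 without iHoxc6 replicate 1 and 3 without iHoxc6 replicate 2, iHoxc6 replicate 3, control replicate 1 or control replicate 3. For iHoxc8 it was 0 without control replicate 3 (edgeR, with 11 members at an unadjusted p under 0.05) and 1 without iHoxc8 replicate 1, while DESeq2 on all libraries gave 5. For iHoxc10 it was 7 without control replicate 3 or iHoxc10 replicate 1 and 6 without iHoxc10 replicate 2. Between iHoxc9 and iHoxc10 it was 7 without iHoxc9 replicate 1 or 3, 8 without iHoxc9 replicate 2, and 9 without iHoxc10 replicate 1 or 2. The iHoxc9 count against control stayed between 20 and 24. In fits of only the 6 libraries compared, the iHoxc6 calls of Kcnf1, Kcnip2, Kcnj2 and Kcnk5 and the iHoxc10 calls of Kcna6, Kcne1l, Kcnf1 and Kcnma1 were lost.

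**Figure D3:**
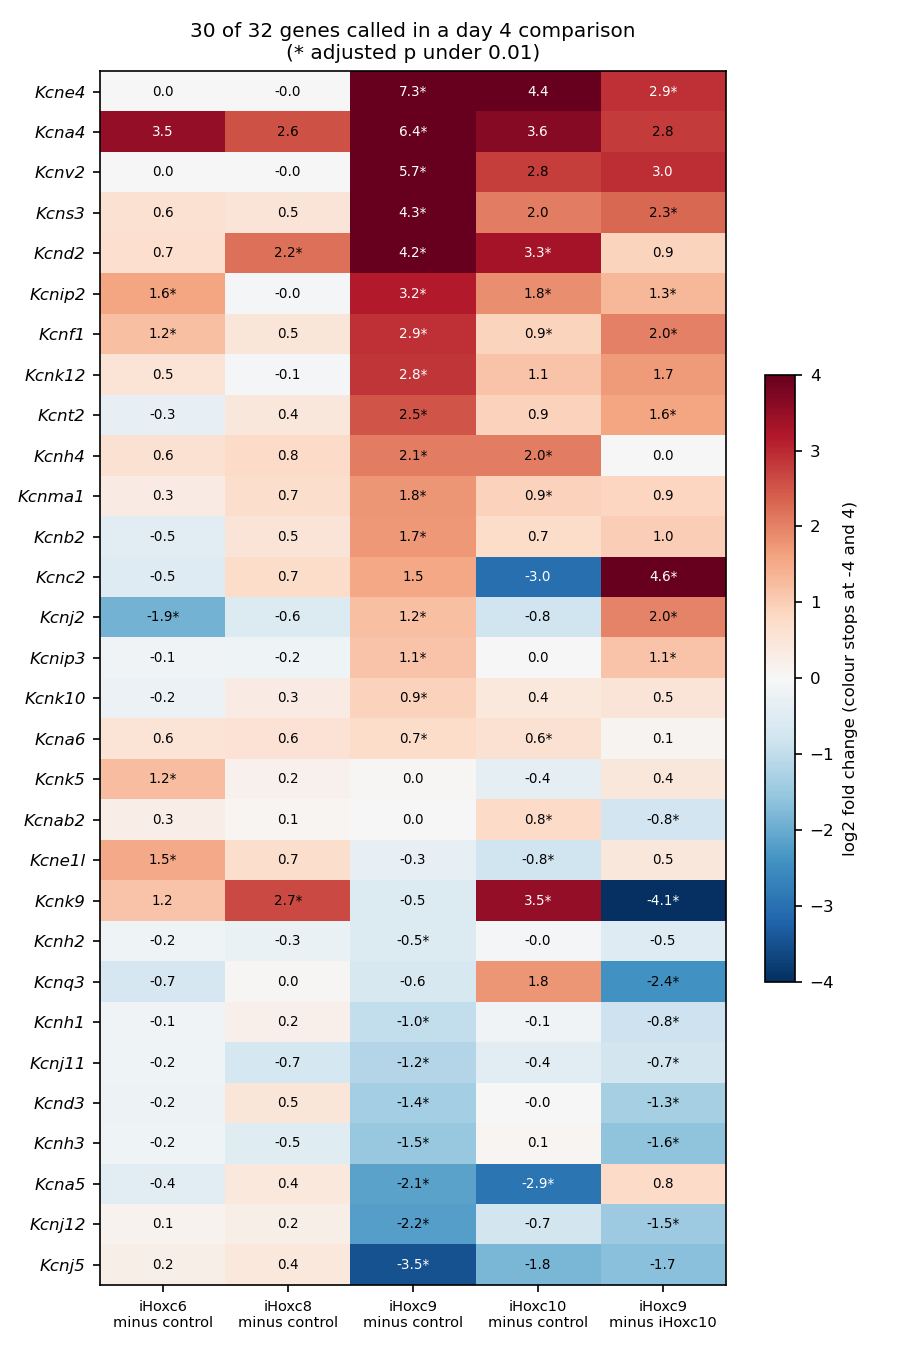
Fitted log2 fold change of 30 of the 32 potassium channel genes called in a day 4 comparison. Each cell gives the value, an asterisk marks an adjusted p under 0.01, and the colour scale stops at 4 in each direction. Among the 5 comparisons, iHoxc9 against control holds the most calls, 24. Values for Kcne4, Kcna4 and Kcnv2 against control are fitted against 0 counts and are no bound.

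Kcnd2 and Kcnd3, which encode pores of the A-type current that delays firing, changed in opposite directions in iHoxc9 neurons. Kcnd2 (chromosome 6, 21215346 to 21729805, plus strand, GRCm38) was at 0.675, 0.154 and 0.412 CPM in control libraries and 9.08, 8.42 and 6.73 CPM in iHoxc9 libraries. It was at 4.8, 5.27 and 2.84 CPM in iHoxc10, 2.25, 1.40 and 2.28 CPM in iHoxc8, and 0.732, 0.622 and 0.660 CPM in iHoxc6. Every iHoxc8, iHoxc9 and iHoxc10 library was above every control library, whereas the iHoxc6 libraries overlapped with them.

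The log2 fold change of Kcnd2 against control was 4.24 ± 0.37 in iHoxc9 (edgeR adjusted p = 1.69e-08), 3.33 ± 0.37 in iHoxc10 (edgeR adjusted p = 1.36e-06) and 2.21 ± 0.38 in iHoxc8 (edgeR adjusted p = 0.00151). Without control replicate 3 or iHoxc8 replicate 1 the iHoxc8 call was lost, with edgeR adjusted p up to 0.0142. The iHoxc9 and iHoxc10 calls held in every alternative.

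Kcnd3 (chromosome 3, 105451890 to 105674002, plus strand) was at 28.9, 25.8 and 23.8 CPM in control libraries and 12.0, 10.4 and 8.24 CPM in iHoxc9 libraries. In iHoxc10 it was at 31.4, 27.5 and 18.4 CPM. All iHoxc9 libraries were below all control and iHoxc10 libraries, and the log2 fold change was -1.36 ± 0.29 against control (edgeR adjusted p = 0.00132) and -1.34 ± 0.29 against iHoxc10 (edgeR adjusted p = 0.00314). The latter call was lost without iHoxc9 replicate 2 or 3 or iHoxc10 replicate 1 or 2 (edgeR adjusted p up to 0.0234). In iHoxc8, Kcnd3 was at 42.6, 23.5 and 44.5 CPM, with replicate 2 apart from the other libraries. Kcnd3 shares exon bases with an antisense gene, and the strand setting of the counting is not given in the sources used here.

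On the per-kilobase scale, Kcnd2 made up 2.79% ± 1.56 of the summed Kcnd2 and Kcnd3 level in control neurons, 5.28% ± 0.33 in iHoxc6, 9.21% ± 0.68 in iHoxc8, 23.6% ± 2.35 in iHoxc10 and 59.7% ± 1.00 in iHoxc9. This share was chosen after its values were seen and was not tested.

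Kcnip2 encodes a calcium-binding auxiliary subunit that brings Kcnd channels to the membrane (chromosome 19, 45792346 to 45816422, minus strand). It was at 1.06, 1.08 and 1.01 CPM in control libraries and 9.66, 8.89 and 9.83 CPM in iHoxc9 libraries. In iHoxc10 it was at 3.43, 4.34 and 3.61 CPM, in iHoxc6 at 4.04, 3.11 and 2.29 CPM, and in iHoxc8 at 1.15, 1.20 and 0.688 CPM. The iHoxc6, iHoxc9 and iHoxc10 libraries lay above all control libraries, and the iHoxc8 libraries overlapped with them.

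The log2 fold change of Kcnip2 was 3.17 ± 0.24 in iHoxc9 (edgeR adjusted p = 2.43e-09), 1.85 ± 0.24 in iHoxc10 (edgeR adjusted p = 1.14e-05) and 1.58 ± 0.24 in iHoxc6 (edgeR adjusted p = 0.000705). The iHoxc6 call was lost in a fit of only the 6 libraries compared (edgeR adjusted p = 0.0156). Between iHoxc9 and iHoxc10 it was 1.32 ± 0.21 (edgeR adjusted p = 0.000202). Kcnip3 was at 1.06, 2.04 and 2.28 CPM in control, 4.15, 3.59 and 4.10 CPM in iHoxc9, and 2.21, 1.47 and 1.70 CPM in iHoxc10. It was higher in iHoxc9 than in control by 1.14 ± 0.25 on the log2 scale (edgeR adjusted p = 0.00197) and than in iHoxc10 by 1.13 ± 0.25 (edgeR adjusted p = 0.00453). Without control replicate 1 the former call was lost (edgeR adjusted p = 0.0158), and the latter was lost without any iHoxc9 library or iHoxc10 replicate 2 or 3 (edgeR adjusted p up to 0.039).

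**Figure D4:**
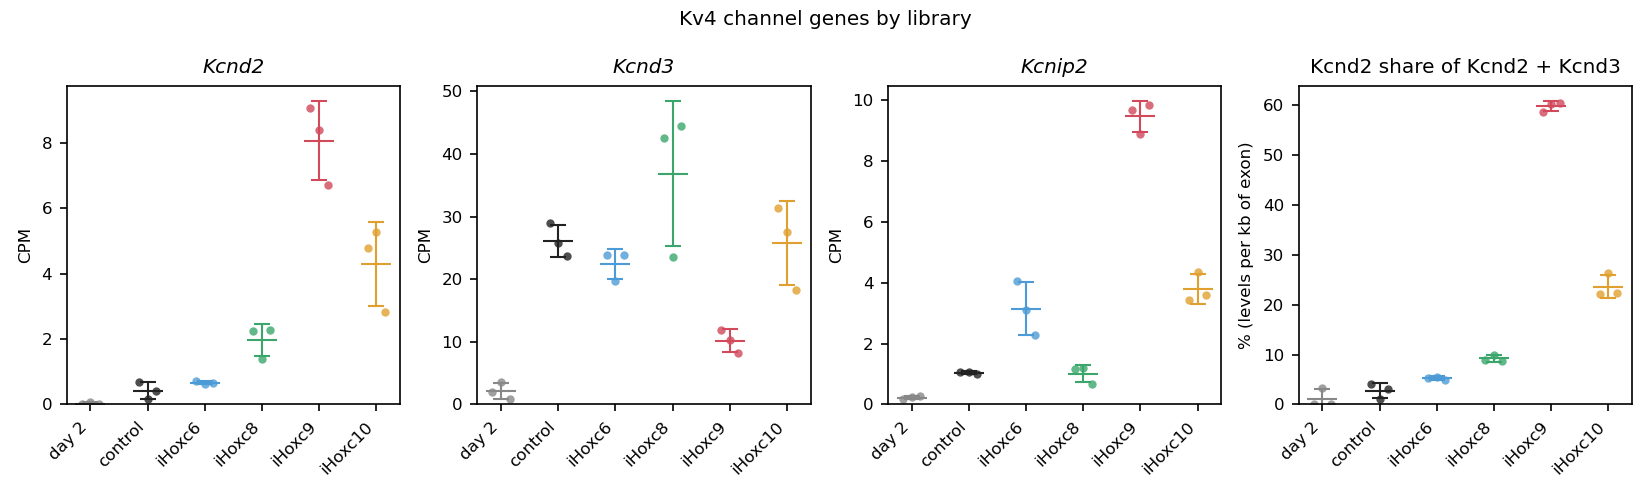
CPM of Kcnd2, Kcnd3 and Kcnip2 in each library by group, and the percent of Kcnd2 in the summed Kcnd2 and Kcnd3 level per kilobase of exon. Points are libraries and bars are the mean ± SD of 3 libraries. In iHoxc9 neurons Kcnd2 and Kcnip2 were highest and Kcnd3 was lowest among the day 4 groups.

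The promoters of these 3 genes and of Kcnf1, described next, are shown because Kcnd2, Kcnip2 and Kcnf1 were all higher in iHoxc9 and iHoxc10 neurons while Kcnd3 was lower in iHoxc9. Kcnip2 and Kcnf1 were also called higher in iHoxc6, and Kcnd2 in iHoxc8. No string preferred by central Hox proteins was searched. Each is the 250 bases before a RefSeq start site listed for the gene in GRCm38 (1 is listed for each of the 4), written 5′ to 3′ on the gene's strand from RefSeq sequence. Capitals mark TTTAT, a string found in sites preferred by posterior Hox proteins, which was searched on both strands. TTTAT occurs on either strand in 37.3% of 32851 RefSeq windows of this length, and in 18 of the 94 windows (19.1%) that belong to the 69 matched potassium channel genes. The longer string TGATTTAT, which contains TTTAT, occurs in 0.837% of all windows and in 0 of these 4. The start used for Kcnip2 lies inside the outer bounds of the gene given above, and so does its window. Bases just downstream of the start were found in a transcript of a second annotation (GENCODE) for Kcnip2 and Kcnf1. For Kcnd2 and Kcnd3 they were not found, and the cause was not tested. A match is a description of letters and no evidence of binding. The study reports that the great majority of Hox binding sites lay distal to start sites, and distal sequence was not searched here.
Kcnd2, chr6:21215096-21215345, plus strand: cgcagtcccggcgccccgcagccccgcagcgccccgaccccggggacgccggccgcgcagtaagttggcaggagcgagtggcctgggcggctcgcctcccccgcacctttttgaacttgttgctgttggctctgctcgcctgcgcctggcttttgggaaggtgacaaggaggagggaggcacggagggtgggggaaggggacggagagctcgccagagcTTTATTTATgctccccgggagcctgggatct
Kcnd3, chr3:105451640-105451889, plus strand: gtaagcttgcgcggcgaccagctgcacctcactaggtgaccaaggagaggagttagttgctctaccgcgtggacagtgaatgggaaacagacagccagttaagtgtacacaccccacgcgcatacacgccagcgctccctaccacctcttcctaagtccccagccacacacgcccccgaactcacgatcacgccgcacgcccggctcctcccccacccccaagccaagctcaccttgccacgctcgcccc
Kcnip2, chr19:45816064-45816313, minus strand: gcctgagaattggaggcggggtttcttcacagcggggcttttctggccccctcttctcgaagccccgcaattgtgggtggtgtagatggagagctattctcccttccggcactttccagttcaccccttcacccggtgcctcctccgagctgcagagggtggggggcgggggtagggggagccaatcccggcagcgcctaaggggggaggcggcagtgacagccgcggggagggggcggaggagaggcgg
Kcnf1, chr12:17176889-17177138, minus strand: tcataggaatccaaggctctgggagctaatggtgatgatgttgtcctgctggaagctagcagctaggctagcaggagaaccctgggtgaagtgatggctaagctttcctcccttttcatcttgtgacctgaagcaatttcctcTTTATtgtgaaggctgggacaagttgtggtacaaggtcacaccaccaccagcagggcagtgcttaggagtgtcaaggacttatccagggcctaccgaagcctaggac

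The Kcnd2 window holds 2 overlapping TTTAT strings and the Kcnf1 window 1, all on the gene's strand, while the Kcnd3 and Kcnip2 windows hold 0. The Kcnd2, Kcnip2 and Kcnd3 windows have 68.8%, 66.8% and 62.8% G and C, above the median of 52.4% over all windows, and hold 22, 15 and 18 CpG pairs against a median of 6. The Kcnf1 window has 51.2% G and C and 1 CpG pair.

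Of the 10 silent subunits tested, Kcnf1, Kcns3 and Kcnv2 were higher in iHoxc9 neurons than in control and 0 were lower. Of all genes tested, 6.95% were higher and 7.13% lower in that comparison. This count and the family counts below cover few genes and were not tested against these shares. Kcnf1 (chromosome 12, 17172100 to 17176888, minus strand) was at 1.61, 1.19 and 1.5 CPM in control libraries and 12.3, 9.77 and 10.5 CPM in iHoxc9 libraries. It was at 3.59, 3.02 and 3.33 CPM in iHoxc6, 1.66, 2.10 and 2.25 CPM in iHoxc8, and 2.66, 3.3 and 2.11 CPM in iHoxc10. Every library of the 4 iHox groups was above every control library.

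Kcnf1 was higher than in control by 2.92 ± 0.24 on the log2 scale in iHoxc9 (edgeR adjusted p = 7.34e-09) and higher in iHoxc9 than in iHoxc10 by 2.01 ± 0.23 (edgeR adjusted p = 1.74e-06). In iHoxc6 and iHoxc10 it passed with log2 fold changes of 1.20 ± 0.24 (edgeR adjusted p = 0.00897) and 0.91 ± 0.24 (edgeR adjusted p = 0.00853). These last calls were lost in 9 and 8 of 12 alternatives, the former without any iHoxc6 library or control replicate 1 or 3 (edgeR adjusted p up to 0.0444) and the latter without any control library or iHoxc10 replicate 1 or 2 (edgeR adjusted p up to 0.0616). Kcns3 was at 0.096, 0 and 0.112 CPM in control libraries and 1.29, 2.03 and 1.23 CPM in iHoxc9 libraries (log2 fold change 4.34 ± 0.64, edgeR adjusted p = 3.05e-05). In iHoxc10 it was at 0.350, 0.466 and 0.081 CPM, 2.31 ± 0.51 lower than in iHoxc9 on the log2 scale (edgeR adjusted p = 0.00406), a call that was lost without iHoxc9 replicate 2 or iHoxc10 replicate 1 or 3 (edgeR adjusted p up to 0.0405). Kcnv2 had 0 counts in control libraries and 0.156, 0.294 and 0.199 CPM in iHoxc9 libraries, at least 2.00-fold higher, and its call was lost without any control or iHoxc9 library (edgeR adjusted p up to 0.0267).

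Of the 7 Shaker-type Kcna genes tested, 2 were higher and 1 was lower in iHoxc9 than in control (6.95% and 7.13% of all genes). Kcna5, a delayed rectifier, was at 8.26, 7.32 and 11.9 CPM in control libraries, 2.31, 2.21 and 1.67 CPM in iHoxc9 and 1.37, 1.25 and 0.972 CPM in iHoxc10. Both iHox groups lay below all control libraries, with log2 fold changes of -2.15 ± 0.28 in iHoxc9 (edgeR adjusted p = 6.19e-06) and -2.93 ± 0.30 in iHoxc10 (edgeR adjusted p = 3.75e-07). In iHoxc8 it was at 10.5, 12.5 and 13.7 CPM and in iHoxc6 at 7.08, 7.59 and 5.87 CPM, and neither passed the test.

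Kcna6 went the other way, from 12.0, 12.1 and 12.1 CPM in control to 20.7, 19.95 and 19.1 CPM in iHoxc9 (log2 fold change 0.72 ± 0.15, edgeR adjusted p = 0.00137). It was at 20.1, 18.8 and 16.8 CPM in iHoxc10 (0.62 ± 0.15, edgeR adjusted p = 0.00452). The iHoxc10 call was lost without control replicate 1 or 3 or iHoxc10 replicate 1 or 2 (edgeR adjusted p up to 0.0297). In iHoxc6 and iHoxc8 Kcna6 averaged 17.7 ± 2.55 and 18.2 ± 0.92 CPM, with every library above control, and did not pass (edgeR adjusted p = 0.0479 and 0.0205). Its exons overlap those of a gene on the other strand. Kcna4, an A-type channel, had 0 counts in control libraries and 0.274, 0.589 and 0.199 CPM in iHoxc9 libraries, at least 3.27-fold higher. Kcnab2, the partner of Kcna channels, was at 21.4, 20.6 and 19.4 CPM in control and 32.8, 36.1 and 35.3 CPM in iHoxc10 (log2 fold change 0.76 ± 0.14, edgeR adjusted p = 0.000482), and at 19.2, 21.0 and 21.4 CPM in iHoxc9. It was lower in iHoxc9 than in iHoxc10 (-0.76 ± 0.14 on the log2 scale, edgeR adjusted p = 0.00103), a call that was lost without iHoxc9 replicate 1 (edgeR adjusted p = 0.0108).

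Of the 8 EAG-type Kcnh genes, Kcnh1, Kcnh2 and Kcnh3 were lower and Kcnh4 was higher in iHoxc9 neurons than in control. The shares of all genes were 7.13% lower and 6.95% higher. Kcnh2 was at 163, 187 and 176 CPM in control libraries and 120.0, 117 and 124 CPM in iHoxc9 libraries. In iHoxc10 it was at 167, 158 and 187 CPM. The iHoxc9 libraries were below all others of day 4 in these groups, and the log2 fold change against control was -0.54 ± 0.13 (edgeR adjusted p = 0.0029), lost without iHoxc9 replicate 1 or 2 (edgeR adjusted p up to 0.0158). Against iHoxc10 it was -0.51 ± 0.13 (edgeR adjusted p = 0.011). Kcnh3 was at 0.964, 0.963 and 0.936 CPM in control, 0.313, 0.353 and 0.318 CPM in iHoxc9 and 0.980, 1.07 and 0.972 CPM in iHoxc10. It fell by 1.52 ± 0.33 in iHoxc9 against control (edgeR adjusted p = 0.00176), lost without iHoxc9 replicate 1 (edgeR adjusted p = 0.0114). It was 1.60 ± 0.33 lower against iHoxc10 (edgeR adjusted p = 0.00233), lost without any iHoxc9 library or iHoxc10 replicate 2 (edgeR adjusted p up to 0.0156).

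Kcnh4 was at 1.22, 0.693 and 0.936 CPM in control, 3.91, 4.8 and 3.26 CPM in iHoxc9 and 4.03, 4.84 and 3.00 CPM in iHoxc10. Both groups lay above control, by 2.06 ± 0.27 (edgeR adjusted p = 5.81e-06) and 2.04 ± 0.27 (edgeR adjusted p = 1.1e-05) on the log2 scale. Among the other voltage-gated genes, Kcnq3, which contributes to the M current, was at 0.391, 0.235 and 0.080 CPM in iHoxc9 and 1.93, 1.07 and 0.810 CPM in iHoxc10, a log2 difference of -2.42 ± 0.58 (edgeR adjusted p = 0.00905) that was lost without any iHoxc9 library or iHoxc10 replicate 1 or 2 (edgeR adjusted p up to 0.0754). Kcnc2, a channel of the fast-spiking type, had 32 counts over the iHoxc9 libraries and 1 over the iHoxc10 libraries, a ratio of 30.7 with a 95% counting interval of 5.12 to 1249. It passed with an edgeR adjusted p of 0.00354, lost without iHoxc9 replicate 1 or 3 or iHoxc10 replicate 2 or 3 (edgeR adjusted p up to 0.0272).

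Of the 13 inward rectifier Kcnj genes tested, 1 was higher and 3 were lower in iHoxc9 than in control (6.95% and 7.13% of all genes). Against iHoxc10, 1 was higher and 2 were lower in iHoxc9 (2.6% and 2.4% of all genes). Kcnj2, a strong inward rectifier that stabilises the resting potential, was at 4.63, 2.00 and 3.78 CPM in control and 8.21, 7.86 and 7.92 CPM in iHoxc9. It was at 0.732, 1.12 and 0.938 CPM in iHoxc6 and 2.42, 1.86 and 1.78 CPM in iHoxc10. The iHoxc9 libraries were above all control libraries (log2 fold change 1.20 ± 0.25, edgeR adjusted p = 0.00124) and the iHoxc6 libraries below them (-1.90 ± 0.28, edgeR adjusted p = 0.00058). The iHoxc6 call was lost without iHoxc6 replicate 1 (edgeR adjusted p = 0.0105), or in a fit of only these 6 libraries (edgeR adjusted p = 0.0201). In iHoxc10 Kcnj2 overlapped with control (-0.78 ± 0.26, edgeR adjusted p = 0.0342).

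Kcnj12, of the same strong rectifier class, was at 4.91, 4.39 and 5.20 CPM in control, 0.939, 1.18 and 1.03 CPM in iHoxc9 and 3.12, 3.3 and 2.35 CPM in iHoxc10. It was lowest in iHoxc9, by 2.19 ± 0.25 on the log2 scale against control (edgeR adjusted p = 9.73e-07) and by 1.47 ± 0.25 against iHoxc10 (edgeR adjusted p = 0.000395). Kcnj2 and Kcnj12 thus changed in opposite directions in iHoxc9. Kcnj11 fell by 1.17 ± 0.18 on the log2 scale in iHoxc9, from 8.19 ± 1.14 to 3.64 ± 0.30 CPM (edgeR adjusted p = 5.13e-05). Kcnj5 had 38 counts over the control libraries and 3 over the iHoxc9 libraries, a ratio of 12.8 with a 95% counting interval of 4.06 to 64.8, and its call was lost without control replicate 1 or iHoxc9 replicate 2 or 3 (edgeR adjusted p up to 0.0356).

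The leak channel Kcnk9, an acid-sensitive relative of Kcnk3, was at 0.096, 0.424 and 0.075 CPM in control. It was at 1.42, 0.968 and 1.31 CPM in iHoxc8, 2.00, 2.72 and 1.99 CPM in iHoxc10, and 0.156, 0.088 and 0.159 CPM in iHoxc9. The iHoxc8 and iHoxc10 libraries were above all control libraries, with log2 fold changes of 2.65 ± 0.43 (edgeR adjusted p = 0.000816) and 3.51 ± 0.42 (edgeR adjusted p = 3.34e-06). The iHoxc8 call was lost without control replicate 3 (edgeR adjusted p = 0.0116). Between iHoxc9 and iHoxc10 the difference was -4.05 ± 0.44 on the log2 scale (edgeR adjusted p = 1.22e-06).

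Kcnk5 was at 4.82, 7.59 and 4.00 CPM in control and 12.6, 13.7 and 12.1 CPM in iHoxc6, and the groups did not overlap (log2 fold change 1.23 ± 0.22, edgeR adjusted p = 0.00338). The call was lost without control replicate 1 or 3 or any iHoxc6 library (edgeR adjusted p up to 0.0357). Kcnk10 averaged 7.51 ± 2.00 CPM in control and 14.3 ± 0.89 CPM in iHoxc9 (0.93 ± 0.21, edgeR adjusted p = 0.00266), a call that was lost without control replicate 3 or any iHoxc9 library (edgeR adjusted p up to 0.033). Kcnk12, a leak subunit with little current of its own, was at 0.128, 0.231 and 0.075 CPM in control and 1.17, 0.942 and 1.07 CPM in iHoxc9 (2.85 ± 0.54, edgeR adjusted p = 0.000475).

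Among the calcium-activated and sodium-activated pores, Kcnma1 and 1 of the 2 Kcnt genes tested were higher in iHoxc9 than in control. None of the 4 Kcnn genes passed that test, in which 6.95% of all genes were higher and 7.13% lower. Kcnma1, the BK channel, was at 4.59, 3.54 and 2.92 CPM in control, 13.7, 12.9 and 11.4 CPM in iHoxc9 and 7.98, 7.88 and 5.10 CPM in iHoxc10. Both groups were above all control libraries, by 1.78 ± 0.24 (edgeR adjusted p = 8.27e-06) and 0.92 ± 0.24 (edgeR adjusted p = 0.00632) on the log2 scale, the latter lost without control replicate 2 or 3 or iHoxc10 replicate 1 or 2 (edgeR adjusted p up to 0.0424). The exons of Kcnma1 overlap those of a gene on the other strand. Kcnt2, a sodium-activated channel, was at 0.675, 0.231 and 0.299 CPM in control and 3.09, 1.80 and 2.23 CPM in iHoxc9 (log2 fold change 2.51 ± 0.39, edgeR adjusted p = 5.57e-05). In iHoxc10 it averaged 0.778 ± 0.227 CPM, 1.59 ± 0.36 lower than in iHoxc9 on the log2 scale (edgeR adjusted p = 0.00517), a call that was lost without any iHoxc10 library or iHoxc9 replicate 1 or 3 (edgeR adjusted p up to 0.0451). Kcnn1 and Kcnmb4, the abundant calcium-activated pore and BK auxiliary subunit, passed the test in none of the 5 day 4 comparisons in the edgeR fit of all 18 libraries.

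The MinK-related auxiliary genes moved in different lines. Kcne1l was at 5.30, 5.66 and 5.13 CPM in control, 14.7, 14.5 and 16.6 CPM in iHoxc6 and 8.28, 8.45 and 9.29 CPM in iHoxc8. It was at 3.95, 4.18 and 4.74 CPM in iHoxc9 and 2.35, 3.58 and 3.40 CPM in iHoxc10. All iHoxc6 libraries were above all other libraries, with a log2 fold change of 1.51 ± 0.19 against control (edgeR adjusted p = 0.000131) that held in every alternative. The iHoxc10 libraries were below control (-0.79 ± 0.20, edgeR adjusted p = 0.00665), a call that was lost without any control or iHoxc10 library (edgeR adjusted p up to 0.0578). Kcnrg and Kcnv1, the remaining family leaders, averaged 0.611 ± 0.298 and 0.595 ± 0.050 CPM in control and passed the edgeR test in none of the 6 comparisons. Kcne4, an inhibitory auxiliary subunit, had 0 counts in control, iHoxc6 and iHoxc8 libraries and 0.548, 1.00 and 0.438 CPM in iHoxc9, at least 6.13-fold higher than in control.

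**Figure D5:**
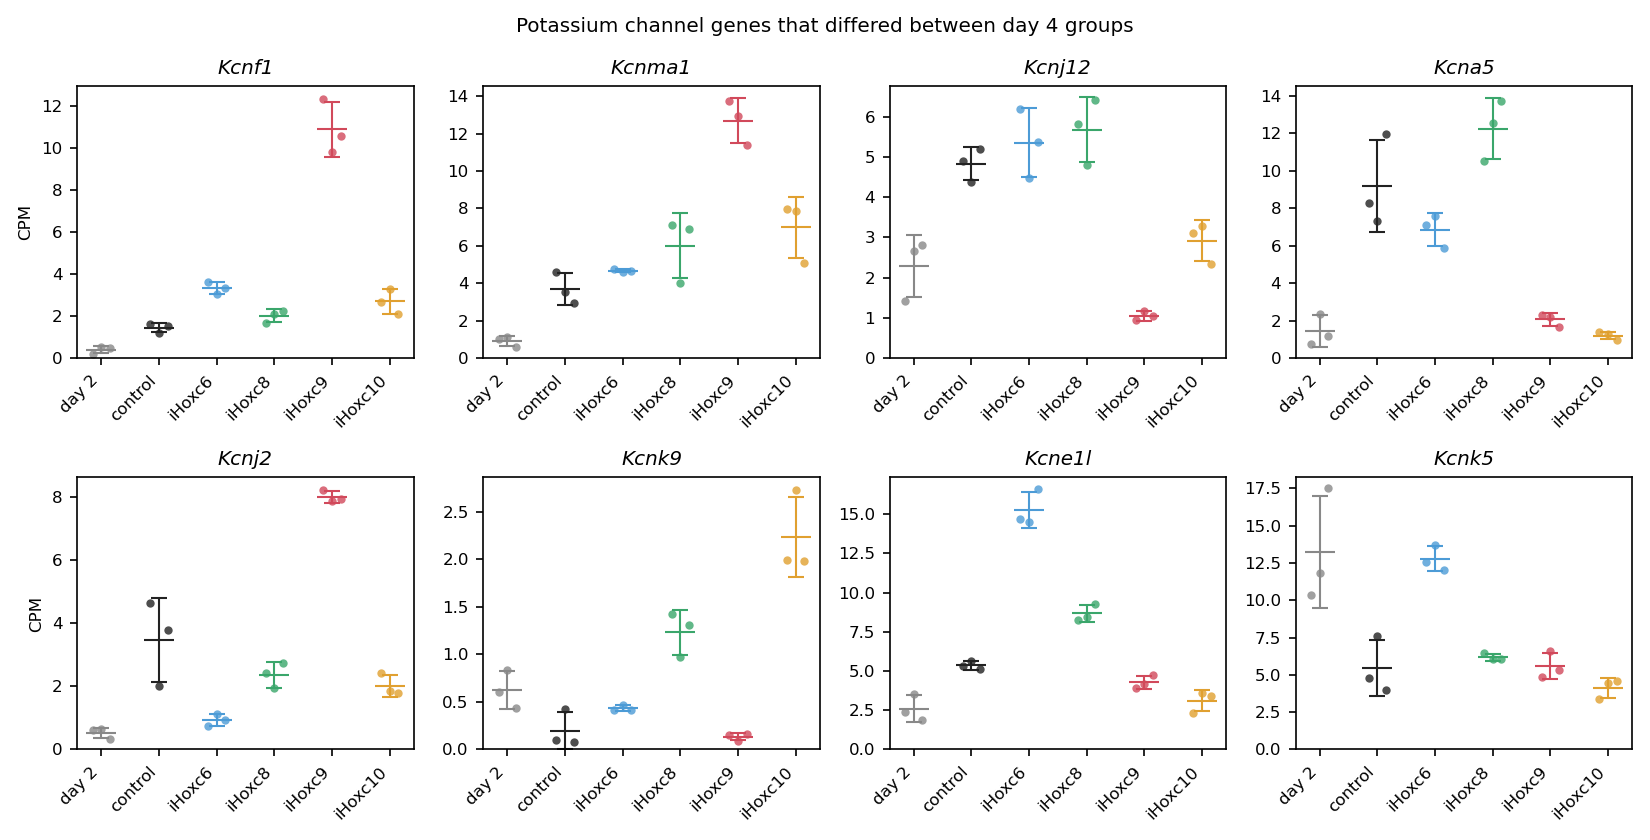
CPM of 8 potassium channel genes in each library by group. Points are libraries and bars are the mean ± SD of 3 libraries. Kcnf1, Kcnma1 and Kcnj2 were highest and Kcnj12 lowest in iHoxc9, Kcna5 was low in iHoxc9 and iHoxc10, Kcnk9 was highest in iHoxc10, and Kcne1l was highest in iHoxc6.

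The iHoxc9 and iHoxc10 libraries were sequenced together, and libraries with the same replicate number deviated together. With the replicate number as a block, 14 of the 16 calls between them remained. Kcne4 (0.662 ± 0.298 CPM in iHoxc9 and 0.085 ± 0.082 in iHoxc10) went from an edgeR adjusted p of 0.0089 to 0.0111 with the block. Kcnj11 (3.64 ± 0.30 and 6.10 ± 0.77 CPM) went from an edgeR adjusted p of 0.00878 to 0.0125. Both calls were also lost without any iHoxc9 library, Kcne4 without iHoxc10 replicate 1 or 3 and Kcnj11 without iHoxc10 replicate 1 or 2 (edgeR adjusted p up to 0.0802 for Kcne4 and 0.058 for Kcnj11). Of the 16 genes, those higher in iHoxc9 were Kcnc2, Kcne4, Kcnf1, Kcnip2, Kcnip3, Kcnj2, Kcns3 and Kcnt2, and those lower were Kcnab2, Kcnd3, Kcnh1, Kcnh3, Kcnj11, Kcnj12, Kcnk9 and Kcnq3.

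Marker genes also differed between the day 4 groups. The motor neuron markers summed to 682 to 713 CPM in control, 461 to 538 CPM in iHoxc6, 481 to 535 CPM in iHoxc8, 314 to 336 CPM in iHoxc9 and 518 to 584 CPM in iHoxc10. Of the 8 markers, those lower than in control by edgeR numbered 5 for iHoxc9, 3 each for iHoxc8 and iHoxc10, and 1 for iHoxc6, and 0 were higher (1 was higher in iHoxc9 than in iHoxc10 and 5 were lower). The neuron markers summed to 4915 to 5391 CPM in control, 5323 to 6259 CPM in iHoxc9 and 6002 to 7147 CPM in iHoxc10, with 2 of 8 higher in iHoxc9 and 4 of 8 higher in iHoxc10. Sensory markers (Pou4f1, Pou4f3 and others) summed to 28.5 to 44.5 CPM in control and 11.1 to 12.5 CPM in iHoxc9, with 2 of 6 higher and 3 lower. Astrocyte markers summed to 33.2 to 51.3 CPM in control, 97.8 to 109 CPM in iHoxc9 and 69.8 to 92.7 CPM in iHoxc10, so that neither iHox group overlapped with control, while 1 of 6, Slc1a2, was called higher in iHoxc9 and 0 in iHoxc10 by edgeR. The median log2 fold change over the 6 astrocyte markers was -0.48 in iHoxc9 and 0.31 in iHoxc10, so the sums do not stand for each marker. The part of these shifts in the channel differences was not tested.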

How the data were processed

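RNA-seq was analysed for 18 libraries in 6 groups of 3. According to the study's methods the authors used STAR 2.7.0c for alignment to mm10 and featureCounts for counting over RefSeq genes. The files hold deposited raw counts per gene for each library, without normalization. Symbols and promoters came from RefSeq for GRCm38, the assembly of mm10, and 25275 of 27179 identifiers had a symbol. Merged exon lengths and exon overlaps came from the GENCODE annotation of GRCm38, matched by symbol, whereas the reads were counted over RefSeq genes. Counts were normalized by TMM and tested with edgeR 4.0.16 in R 4.3.3, whose quasi-likelihood model held all 18 libraries and 1 term, the group. The test covered 20944 genes with at least 1 count in an iHox library, with Benjamini-Hochberg adjustment over all of them and a threshold of 0.01. Levels are TMM-normalized CPM, divided by kilobases of merged exon where genes were compared. A fold against 0 counts in a group was computed against 3 counts per library and is a lower bound. Ratios of small counts carry exact binomial intervals, which cover counting error only. For 28 members, exons overlap another gene. The strand setting is not given in the sources used here, so reads of overlapping genes cannot be told apart.

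Members were named if they passed 0.01 with a log2 fold change beyond 2 in a day 4 comparison, were among the 6 largest changes in a comparison at 1 CPM or more, or led their family per kilobase. Kcnb2, Kcnh1 and genes named only in lists of calls fall outside this rule and were named after their values were seen. Some genes within this rule are not reported here, although all counts include them. The members and lists were chosen with earlier results of these data known. Marker lists covered neurons, motor neurons, progenitors, cycling cells, astrocytes, pericytes and endothelium, sensory and crest cells, endoderm and pluripotent cells, and a further list held 29 partner genes of potassium channels. Same-numbered iHoxc9 and iHoxc10 libraries correlated at 0.46, 0.42 and 0.54 in their deviations from the group means. The main test did not use this pairing. The replicate block was a fit of all 18 libraries with replicate terms shared by the 6 groups, and no paired fit of these groups alone was run. Alternatives were DESeq2 1.42.0, its size factors within edgeR, 2 filters on low counts, the replicate block, fits of only the 6 libraries compared, and each library left out in turn. On simulated counts for iHoxc9 against control (20460 genes, of which 200 were shifted by 2 on the log2 scale) the test recovered 99% with 3 other calls. The shifted genes were drawn only from those averaging above 1 CPM, and no run, line or replicate effect was simulated. Recovery at lower levels was not tested, and only 34 of the 94 members averaged above 1 CPM over the day 4 libraries. With 3 libraries against 3, the smallest p of an exact permutation test is 0.1 (two-sided), so none was used. ChIP-seq and ATAC-seq of the study were not analysed here.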

Additional observations from a re-analysis of the deposited data

Results flagged for a closer look

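Kcnj2, an inward rectifier, differed between iHoxc9 and iHoxc10 neurons in the test of the difference itself. Its log2 fold change was 1.20 in iHoxc9 and -0.78 in iHoxc10 against control, of which only the former passed edgeR's adjusted threshold, and iHoxc9 minus iHoxc10 was 1.98 (edgeR adjusted p = 1.56e-05), higher in 3 of 3 iHoxc9 libraries.

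Kcnk9, a leak channel, had a log2 fold change against control of -0.54 in iHoxc9, where the libraries overlapped with control (edgeR adjusted p = 0.54), and of 3.51 in iHoxc10, which passed. The difference of iHoxc9 minus iHoxc10 was -4.05 (edgeR adjusted p = 1.22e-06), lower in 3 of 3 iHoxc9 libraries.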

How the results depend on the processing

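Of 91 calls of named genes, 57 held in every alternative that gave the gene an adjusted p, 34 were lost in at least 1, and 0 reversed. In iHoxc9 against control, Kcna4 had 11 such alternatives and Kcnv2 had 10, whereas the other calls had 12. The counts of called members moved by over 1.5 times in these cases. In fits of only the 6 libraries compared, iHoxc6 gave 1 in place of 5, iHoxc10 gave 7 in place of 12, and iHoxc9 against iHoxc10 gave 26 in place of 16, and DESeq2's Wald test gave 5 in place of 2 for iHoxc8. The cause was not tested. With each library left out in turn, the counts ran from 2 to 6 for iHoxc6, 0 to 3 for iHoxc8, 20 to 24 for iHoxc9, 6 to 14 for iHoxc10, 7 to 11 for iHoxc9 against iHoxc10 and 39 to 46 for control against day 2. The other alternatives stayed within 1.5 times the counts reported. Blocking on replicate number, the counts were 4 for iHoxc6 (Kcnf1 lost), 2 for iHoxc8, 23 for iHoxc9 (Kcnv2 lost), 12 for iHoxc10 (Kcnf1 lost, Kcnq3 gained), 14 for iHoxc9 against iHoxc10 and 45 for control against day 2 (Kcnj8 lost). Outside iHoxc9 against iHoxc10, at least 1 same-numbered pair correlated below 0.1 in each comparison. Mean correlations of same-numbered pairs there ran from -0.23 to 0.03, and single pairs reached 0.28. The labels do not say whether the numbers mark shared differentiations, and with 3 libraries per group these correlations cannot settle it. At these depths 3 counts equal about 0.1 CPM, so genes near that level rest on few reads.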

Other observations

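Partner genes of potassium channels were tested alongside, 28 of 29 listed. In control against day 2, 18 rose and 2 fell (42.4% of all genes were called). Against control, 12 were higher and 1 lower in iHoxc10, 4 higher and 3 lower in iHoxc9, 1 higher and 0 lower in iHoxc8, and 0 higher and 1 lower in iHoxc6, where the shares of all genes called in either direction were 14.4%, 14.1%, 2.12% and 0.587%. Between iHoxc9 and iHoxc10, 1 was higher in iHoxc9 and 4 lower (4.99% of all genes were called).

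Cntnap2, which anchors Kcna channels beside the node of Ranvier, was at 8.51 ± 1.45 CPM in control, 31.7 ± 3.66 CPM in iHoxc9 and 73.6 ± 6.48 CPM in iHoxc10, with log2 fold changes against control of 1.89 and 3.11 and a difference of -1.22 between iHoxc9 and iHoxc10. Dlg2, a scaffold that clusters Kcna and Kcnj channels, was at 1.31 ± 0.19 CPM in control, 20.2 ± 2.23 CPM in iHoxc9 and 2.78 ± 0.30 CPM in iHoxc10 (log2 fold changes 3.94 and 1.09). Both genes passed edgeR's adjusted threshold in these comparisons. Dpp6, an auxiliary subunit of Kcnd channels, was at 12.1 ± 2.8 CPM in control, 16.5 ± 0.25 CPM in iHoxc9 and 33.7 ± 4.97 CPM in iHoxc10, and passed in iHoxc10 only (log2 fold change 1.47). It was lower in iHoxc9 than in iHoxc10 by 1.03 on the log2 scale (edgeR adjusted p = 0.00126). Abcc8, the regulatory partner of Kcnj11, fell by 1.89 on the log2 scale in iHoxc9, from 3.79 ± 1.87 to 1.01 ± 0.23 CPM, and Kcnj11 fell in the same comparison. These genes were chosen after their values were seen.

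The other marker lists were tested against control, where 14.1% of all genes were called in iHoxc9 and 14.4% in iHoxc10. Among 8 progenitor markers 2 were higher and 2 lower in iHoxc9 and 3 lower in iHoxc10. Among 6 cycling markers 2 were lower in iHoxc9 and 3 in iHoxc10. Among the astrocyte markers Gfap had at most 3 counts in every day 4 library. Among 8 pericyte and endothelial markers 1 was higher and 1 lower in iHoxc9 and in iHoxc10, and summed levels stayed below 8.55 CPM at day 4. Among the endoderm markers 1 was lower in iHoxc9, and Sox17 and Afp had at most 3 counts in every day 4 library. None of the 6 pluripotency markers was called in a day 4 comparison by edgeR, and Pou5f1, Nanog, Zfp42 and Tdgf1 had at most 3 counts in every day 4 library.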
